A study of Homo sapiens with 6 samples.

Results

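The glycolysis and hypoxia response genes described here were 41 genes selected by name from the 38637 genes of the expression table. They comprised 5 genes of oxygen sensing, 3 transporters of glucose or lactate, 16 glycolytic enzymes, 3 regulators of glycolysis, 3 gluconeogenic enzymes and 11 other target genes of the hypoxia-inducible factors. The cells were HCCLM3-SR, a sorafenib-resistant derivative of the human hepatocellular carcinoma line HCCLM3, which was obtained by prolonged exposure to rising drug concentrations. In 3 libraries the cells had received an siRNA against cDCBLD2, a circular RNA made from exons of the DCBLD2 gene, and in 3 libraries they had received a control siRNA (siCTRL). Both groups were under 5 µM sorafenib, a multikinase inhibitor, and were transfected for 3 days in DMEM with fetal bovine serum, so no library without sorafenib was part of the comparison. A single resistant line was used, and the labels do not state whether replicates came from separate cultures, so the p-values measure the spread between these libraries, which may be technical. The question was which transcripts differed after cDCBLD2 knockdown.

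In cells with enough oxygen, prolyl hydroxylases of the EGLN family mark HIF-1α and HIF-2α for VHL-dependent degradation. When oxygen is short, these proteins accumulate, pair with ARNT and bind hypoxia response elements in the promoters and enhancers of their target genes. The targets include glucose transporters, most glycolytic enzymes, carbonic anhydrases and angiogenic factors, and they are often raised in liver tumors.

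Of the 41 genes, 38 had a mean of at least 1 TPM (a level per length of transcript, scaled to a sum of 1000000 per library) over the 6 libraries and were tested among 13980 genes. EGLN3, HK2 and PCK1 were below this level. With limma, a linear model fitted over all genes on log2(TPM + 1), and Benjamini-Hochberg adjustment, 1 of the 38 was higher in knockdown cells at an adjusted p under 0.05 and 0 were lower. Over all genes tested, 0.25% were called higher and 0.629% lower in this fit, and 8 of the 38 had an unadjusted p under 0.05, which was the case for 26.1% of all genes tested. Deviations from the group means correlated between libraries that share a replicate number (0.56, 0.343 and 0.362). They also correlated between replicates 2 and 3 across the groups (0.214 and 0.247), so mainly replicate 1 was set apart. With the replicate number as a block in limma, 18 of the 38 were higher, 3 were lower and 17 passed in neither direction. The background in that fit was 9.94% higher and 25.0% lower, so the calls among all genes were mostly decreases while those among these genes were mostly increases. The 41 genes were chosen with earlier results of these data known, so this contrast describes them and is not a test. In the sentences that follow, rose and fell refer to the fit with the replicate block, which was planned as an alternative to the fit without it.

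The promoters of 6 genes are shown because these genes rose by at least 0.5 on the log2 scale and the table of promoters lists a single start for each, so that the core letters of the hypoxia response element could be searched in 1 window per gene. Each sequence is the 250 bases before the transcription start in RefSeq (GRCh38.p14), written 5′ to 3′ on the gene's strand, with the letters ACGTG or the letters GCGTG, read on either strand, in capitals. They lie at chr9:35673678-35673927 on the plus strand for CA9, chr11:10304823-10305072 on the plus strand for ADM, chr3:48556804-48557053 on the minus strand for PFKFB4, chr1:42958869-42959118 on the minus strand for SLC2A1, chr4:185396591-185396840 on the plus strand for ANKRD37 and chr12:6914330-6914579 on the plus strand for ENO2.
CA9: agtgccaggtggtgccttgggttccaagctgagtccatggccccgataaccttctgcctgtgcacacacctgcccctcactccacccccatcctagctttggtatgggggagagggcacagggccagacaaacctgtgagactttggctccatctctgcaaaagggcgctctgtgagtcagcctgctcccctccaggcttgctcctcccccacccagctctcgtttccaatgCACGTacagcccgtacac
ADM: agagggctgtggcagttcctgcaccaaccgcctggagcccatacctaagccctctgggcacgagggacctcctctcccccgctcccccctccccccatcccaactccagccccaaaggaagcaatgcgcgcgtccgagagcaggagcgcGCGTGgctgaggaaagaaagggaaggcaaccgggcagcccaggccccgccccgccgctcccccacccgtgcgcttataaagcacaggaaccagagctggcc
PFKFB4: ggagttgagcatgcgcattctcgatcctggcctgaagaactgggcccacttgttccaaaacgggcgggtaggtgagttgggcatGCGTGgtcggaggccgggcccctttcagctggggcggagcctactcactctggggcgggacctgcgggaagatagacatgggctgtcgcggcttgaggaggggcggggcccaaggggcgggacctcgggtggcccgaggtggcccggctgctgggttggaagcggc
SLC2A1: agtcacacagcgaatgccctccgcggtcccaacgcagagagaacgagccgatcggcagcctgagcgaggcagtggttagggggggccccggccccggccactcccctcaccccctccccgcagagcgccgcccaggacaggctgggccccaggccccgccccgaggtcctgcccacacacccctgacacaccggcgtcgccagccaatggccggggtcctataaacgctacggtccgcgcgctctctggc
ANKRD37: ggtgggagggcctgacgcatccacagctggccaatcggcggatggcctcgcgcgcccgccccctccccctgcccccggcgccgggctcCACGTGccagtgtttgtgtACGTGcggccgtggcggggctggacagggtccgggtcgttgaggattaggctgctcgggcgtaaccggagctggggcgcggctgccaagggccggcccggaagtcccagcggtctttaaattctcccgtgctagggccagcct
ENO2: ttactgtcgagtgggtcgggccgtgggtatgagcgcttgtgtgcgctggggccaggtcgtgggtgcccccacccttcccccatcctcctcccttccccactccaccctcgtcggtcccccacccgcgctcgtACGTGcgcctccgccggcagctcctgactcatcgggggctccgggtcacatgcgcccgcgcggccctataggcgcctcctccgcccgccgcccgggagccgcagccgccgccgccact

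The match in CA9 began 18 bases before the start, that in ADM 101 bases, that in PFKFB4 166 bases and that in ENO2 118 bases before it. ANKRD37 held a CACGTG, in which matches on both strands overlap, and a separate ACGTG that began 143 bases before the start, while the letters did not occur in the SLC2A1 window. Promoters were listed for 35 of the 41 genes, and PCK1, BNIP3L, VHL, VEGFA, SLC2A3 and NDRG1 had no entry. Of the 23 genes with 1 listed start, 10 (43.5%) held ACGTG on either strand, beside 24.3% of the 7641 tested genes with 1 listed start and 18.5% of all promoters in the table. GCGTG was held by 10 of these 23 genes (43.5%), beside 45.9% of the tested genes and 32.2% of all promoters. These are counts of letters in a window, not of bound sites.

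DCBLD2, the host gene of the targeted circular RNA, had 58.1, 25.9 and 31.6 TPM in knockdown replicates 1, 2 and 3, against 71.5, 48.5 and 50.7 TPM in controls 1, 2 and 3. It was lower in each pair but the groups overlapped (log2 fold change -0.61, limma adjusted p = 0.253, or 0.0139 once the block was added). The values count whole genes in a polyA library and cannot separate the circular from the linear transcript. They therefore do not show whether the circular RNA itself fell. The paper reported that mRNA and protein of the host gene did not change in an obvious, consistent way across its resistant lines after the knockdown. The libraries held between 17492673 and 23064302 reads recovered from the TPM values, and each gene tested here had between 24 and 149977 of them per library. Of the hepatocyte markers, KRT8 and KRT18 were abundant and HNF4A lay between 22.9 and 31.3 TPM, and these 3 rose while APOB fell (limma adjusted p with the block 0.00669, 0.00954, 0.0196 and 0.0126), although KRT8 and HNF4A no longer passed with the GC offset described below. The list of 10 hepatocyte and liver cancer markers summed to between 5839.8 and 7009 TPM in knockdown cells. In controls it summed to between 4830.1 and 5649 TPM. Most of each sum was KRT8 (mean 3926.7 against 3139.7 TPM) and KRT18 (2322.4 against 1941.2 TPM), so the sums mainly describe these genes. ALB, APOA1, GPC3 and TTR stayed under 2 TPM in the 6 libraries. TTR, on 1 to 9 reads per library, was higher in knockdown cells without overlap and was not tested. AFP and SERPINA1 did not pass with the block alone. The leukocyte, endothelial and erythroid marker lists summed to at most 6.98, 5.78 and 1.73 TPM, with CD3E at 0, whereas the fibroblast list, led by COL1A1 (limma adjusted p = 0.0132 with the block), summed to between 3.76 and 14.5 TPM in knockdown cells and between 1.43 and 3.49 TPM in controls. The part of these markers in the results below was not tested.

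Replicate 1 stood apart within both groups. For 24 of the 38 genes it was the lowest of the 3 replicates in both groups, which held for 27.05% of all genes tested, and HIF1A was the 1 gene among the 38 for which it was the highest in both (38.91% of all genes). The mean of replicates 2 and 3 of CA9, for example, was 3.76 times replicate 1 in knockdown cells and 6.40 times replicate 1 in controls. This spread between replicate numbers was larger than the difference between the groups for many targets, and their groups overlapped while every pair moved the same way. What the replicate numbers stand for is not given in the labels.

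**Figure D1:**
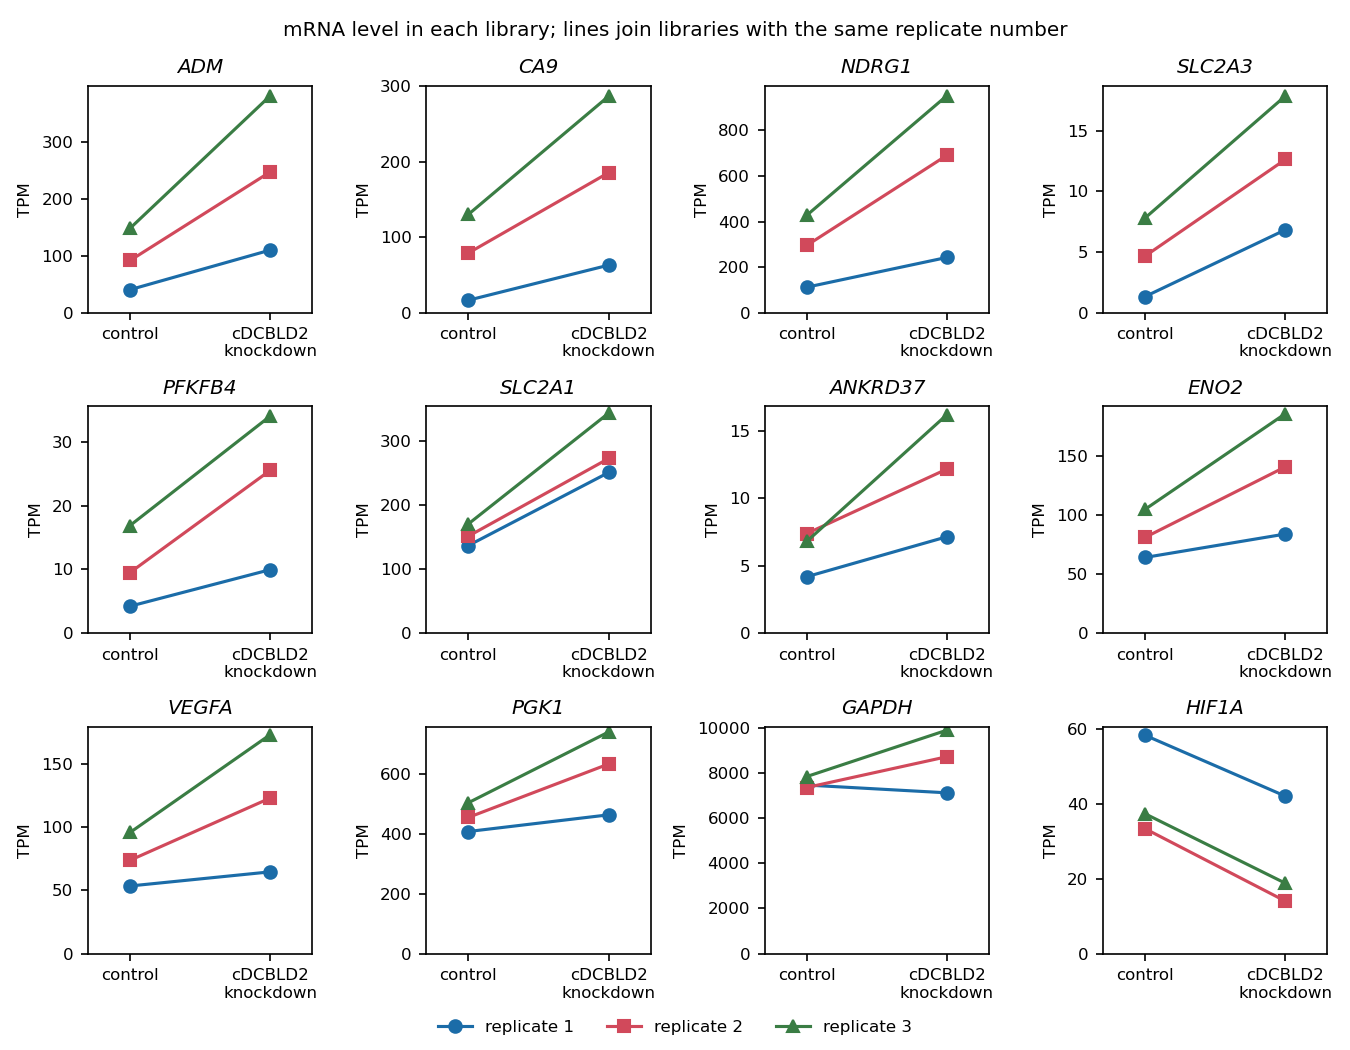
TPM (vertical axis, linear from 0) of 12 of the 41 genes in each library, with control on the left and cDCBLD2 knockdown on the right of each panel; lines join libraries with the same replicate number (circle 1, square 2, triangle 3). The lines of ADM, CA9, NDRG1, SLC2A3 and PFKFB4 rise in all 3 pairs while replicate 1 stays lowest, those of HIF1A fall from a highest replicate 1, and GAPDH moves in different directions in different pairs.

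Among the oxygen sensing genes, HIF1A fell and none rose. HIF1A, which encodes the oxygen-regulated subunit HIF-1α, had 42.0, 14.0 and 18.8 TPM in knockdown replicates 1, 2 and 3, against 58.3, 33.3 and 37.3 TPM in controls 1, 2 and 3. Replicate 1 was the highest in both groups and the groups overlapped, but each knockdown library was below its control, at 0.721, 0.420 and 0.503 times its level. The log2 fold change was -0.87 with an SE of 0.41 and a limma adjusted p of 0.23, and the block brought the adjusted p to 0.0101 (SE 0.14), ranging from 0.00135 to 0.0639 over the other fits with the block. With the GC offset the change was -0.56, and without the block it was -1.31 when knockdown replicate 1 was left out and -0.55 when knockdown replicate 2 was. The antisense transcript HIF1A-AS2, which overlaps HIF1A, followed the same order, with 10.8, 3.31 and 5.07 TPM in knockdown and 14.6, 7.77 and 9.44 TPM in control replicates. The strand setting of the counting is not given in the sources used here, so reads of the gene and of this transcript may not be fully separated.

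EPAS1, which encodes HIF-2α, was at 87.1, 94.2 and 91.4 TPM in knockdown and 80.7, 82.1 and 85.2 TPM in control replicates. The groups did not overlap, which 9.58% of all genes did in the higher and 22.3% in the lower direction, yet the difference did not pass the test (log2 fold change 0.14, limma adjusted p = 0.228, and 0.0664 with the block), and the result moved with the scaling. With the block added, it passed with upper-quartile scaling (0.21, limma adjusted p = 0.0207) and with limma-voom (0.24, adjusted p = 0.00772), and its sign changed with the GC offset (-0.036). Of the sum of both subunits, HIF1A made up 20.8% ± 10.3 (SD, n = 3) in knockdown cells and 33.8% ± 7.13 (SD, n = 3) in controls (unpaired exact permutation p = 0.3, where 0.1 is the smallest p that 3 against 3 libraries allow). The HIF1A share was lower in each pair, at 32.5%, 12.9% and 17.0% in knockdown against 41.9%, 28.9% and 30.5% in control replicates. VHL, the substrate receptor of the ligase that degrades both subunits, was at 60.3 ± 1.24 against 61.3 ± 1.07 TPM. EGLN1, the main oxygen-sensing prolyl hydroxylase, was at 33.0, 31.4 and 36.6 TPM in knockdown and 31.0, 30.5 and 33.4 TPM in control replicates. VHL and EGLN1 had log2 fold changes of -0.025 and 0.086 and did not pass in either fit. EGLN3, a hydroxylase that is itself a HIF target, was at 0.107, 0.314 and 0.507 TPM against 0.0548, 0.138 and 0.138 TPM, on 1 to 12 reads per library, and was not tested.

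All 3 transporters rose. SLC2A1 (GLUT1), the widespread glucose transporter, was at 251, 273 and 343 TPM in knockdown and 137, 151 and 170.4 TPM in control replicates. The lowest knockdown library lay above the highest control, and each pair differed in the same direction, by 1.83, 1.80 and 2.02 times. SLC2A1 was the 1 gene of the 41 called without the block, with a log2 fold change of 0.91, an SE of 0.14 and a limma adjusted p of 0.0495, and with the block the adjusted p was 0.00348. Without the block this call was close to the threshold, and the adjusted p ranged from 0.0137 to 0.222 over the alternatives.

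SLC2A3 (GLUT3), a transporter of high glucose affinity, was far less abundant, at 6.82, 12.6 and 17.8 TPM in knockdown and 1.32, 4.65 and 7.80 TPM in control replicates. The groups overlapped, since control replicate 3 lay above knockdown replicate 1, while the 3 pairs had ratios of 5.18, 2.71 and 2.29. Its log2 fold change came to 1.37 (limma adjusted p = 0.171, and 0.00503 with the block, 0.000235 to 0.0391 over the other fits with the block). Without control replicate 1 the unblocked change was 0.84. SLC2A1 accounted for 96.0% ± 1.20 of the summed TPM of both transporters in knockdown cells and 97.2% ± 1.72 in controls (SD, n = 3 each; unpaired exact permutation p = 0.4), and its share was lower in each pair.

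SLC16A3 (MCT4), which exports lactate, was at 263, 347 and 411 TPM in knockdown and 219, 234 and 255 TPM in control replicates. The groups did not overlap, with a log2 fold change of 0.50 (limma adjusted p = 0.125, and 0.0111 with the block, 0.000827 to 0.062 over the other fits with the block). With the GC offset the change of SLC16A3 was 0.24 (adjusted p = 0.0219 by limma). SLC16A1 (MCT1), a lactate transporter outside the 41 genes, fell, at 30.6, 22.1 and 23.0 TPM against 36.4, 32.2 and 32.9 TPM. The share of SLC16A3 in the summed TPM of both was 92.8% ± 2.79 in knockdown cells and 87.4% ± 1.46 in controls (SD, n = 3 each; exact permutation p = 0.1, the smallest possible).

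**Figure D2:**
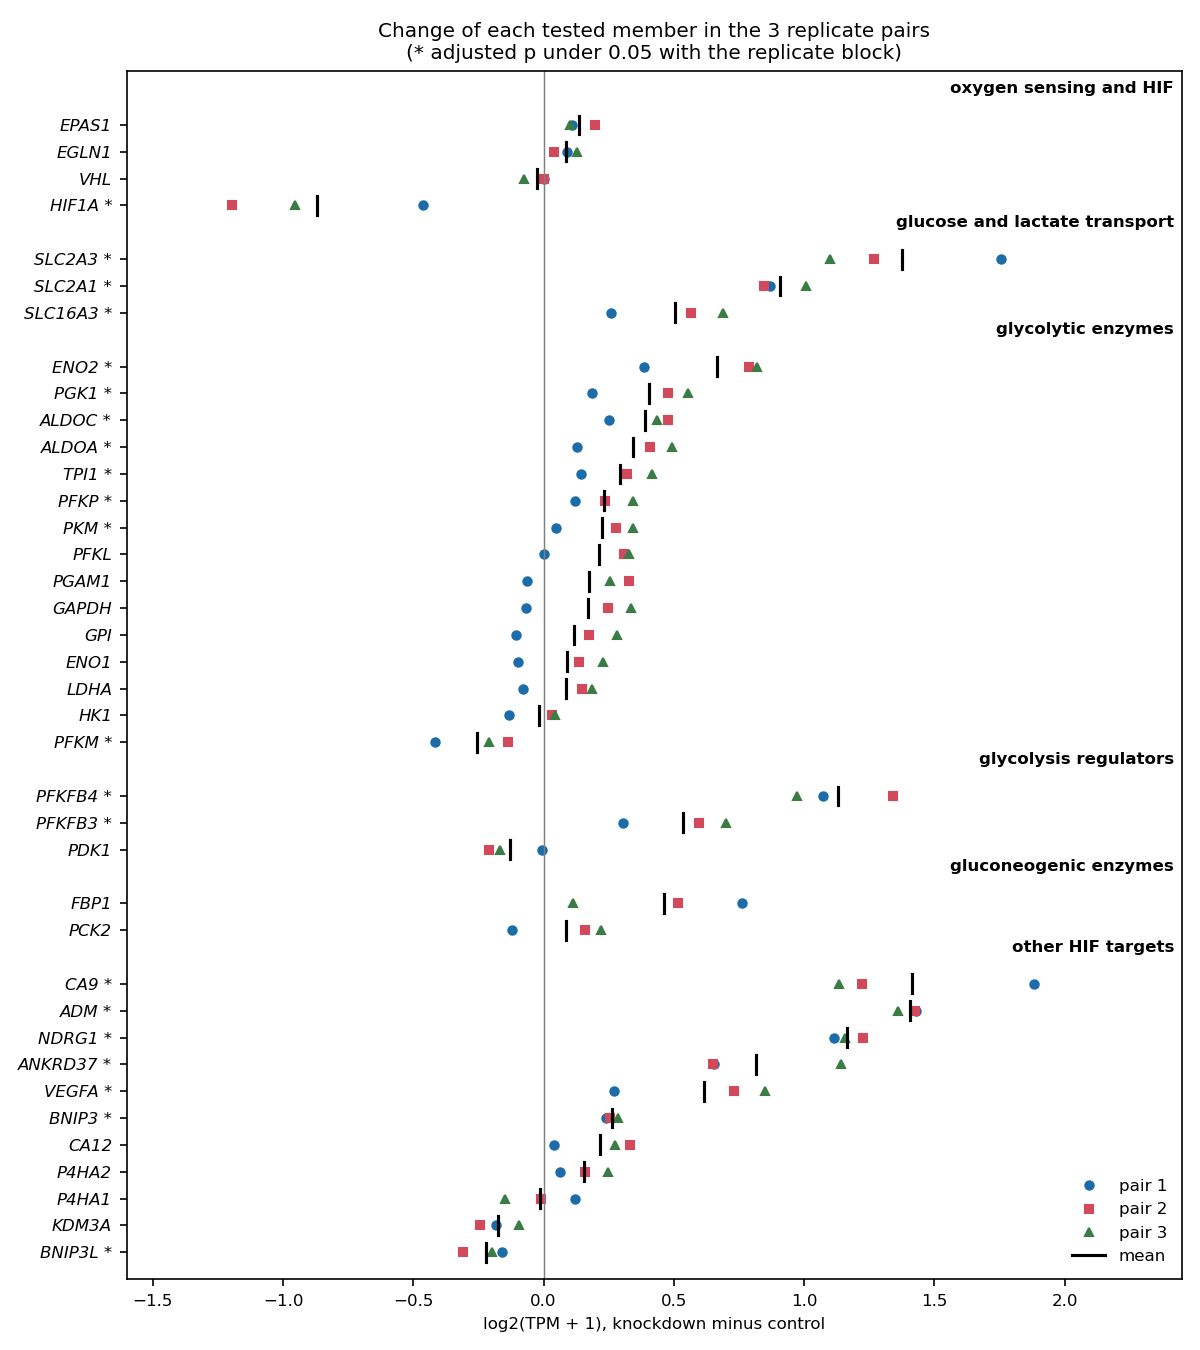
Difference of log2(TPM + 1) between the knockdown and the control library with the same replicate number (horizontal axis) for each of the 38 tested genes, grouped by role; symbols are the 3 pairs, black bars the mean, and stars mark an adjusted p under 0.05 with the replicate block. The 3 transporters and most of the leading HIF targets have all pairs right of 0, HIF1A has all pairs left of 0, and in most glycolytic enzymes pair 1 lies left of pairs 2 and 3.

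Glycolytic enzymes were among the most abundant of the 41 genes. Of 15 tested enzymes 7 rose (ALDOA, ALDOC, TPI1, PGK1, ENO2, PFKP and PKM), PFKM fell and 7 passed in neither direction. Without the block 0 of the 15 passed, with 4 at an unadjusted p under 0.05, against the 26.1% of all genes given above. The median log2 fold change of the 15 was 0.21, beside -0.08 over all genes tested. With an offset for the GC content of the transcripts and the block, the median was 0.061 (-0.12 over all genes), and 4 rose and 1 fell, beside 6.03% and 29.8% of all genes. The 16 enzymes together made up 1.92% ± 0.271 of all TPM in knockdown cells and 1.66% ± 0.0473 in controls (SD, n = 3 each; exact permutation p = 0.3). In replicate 1 the sum was slightly lower in knockdown than in control cells (1.63% against 1.65%), and in replicates 2 and 3 it was higher.

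HK1 and HK2 encode hexokinases, which phosphorylate glucose on entry. HK1 was at 114, 121 and 123 TPM in knockdown and 125, 118 and 119 TPM in control replicates and did not pass in either fit (log2 fold change -0.019). HK2, the isozyme often raised in tumors, was at 0.197, 0.127 and 0.234 TPM against 0.202, 0.128 and 0.149 TPM, on 6 to 12 reads per library. HK2 therefore made up 0.105% and 0.0913% of the summed hexokinase TPM in the 2 groups, and most of the rest was HK1, with HKDC1 at 32.6% and 30.7%. GPI, the isomerase of the next step, was at 175 ± 24.8 against 160.5 ± 3.33 TPM (SD, n = 3 each) and did not pass.

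The phosphofructokinases, which catalyse the committed step, moved in different directions. PFKP, the platelet-type subunit and the most abundant of the 3, was at 209, 224 and 249 TPM in knockdown and 192, 190.0 and 196 TPM in control replicates, with no overlap. PFKP rose (log2 fold change 0.23, limma adjusted p = 0.134, and 0.0244 with the block), but with an offset for GC content its log2 fold change was 0.05 and the adjusted p 0.35. PFKM, the muscle-type subunit, was at 63.4, 79.1 and 74.9 TPM in knockdown and 84.9, 87.1 and 86.8 TPM in control replicates, again with no overlap, and it was the 1 gene of the 38 with every knockdown library below every control. PFKM fell (log2 fold change -0.25, limma adjusted p = 0.153, and 0.0325 with the block, 0.0124 to 0.115 over the other fits with the block), by -0.16 without knockdown replicate 1 and -0.16 with limma-voom. PFKL, the liver-type subunit, was at 115, 139.7 and 148 TPM against 115, 113 and 118 TPM and did not pass (log2 fold change 0.21, limma adjusted p with the block 0.0778). The share of PFKM in the summed TPM of the 3 subunits was 16.7% ± 1.03 in knockdown cells and 21.9% ± 0.390 in controls, and that of PFKP was 52.4% ± 1.68 against 48.9% ± 0.133 (SD, n = 3 each). Neither share overlapped between the groups (exact permutation p = 0.1 for each, the smallest possible), and a share within the 3 genes does not depend on the scaling of the library. It can depend on GC content, which was 63.6% for PFKL, 58.0% for PFKP and 51.3% for PFKM. No share of a gene within its set was computed with the GC offset.

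Of the aldolases, which split fructose bisphosphate, ALDOA was at 1838, 2438 and 2788 TPM in knockdown and 1683, 1835 and 1984 TPM in control replicates. It was higher in each pair although the groups overlapped, and it rose with a log2 fold change of 0.34 (limma adjusted p = 0.228, and 0.0219 with the block), but passed no longer with the GC offset (0.13, adjusted p = 0.091), and was at 0.21 without knockdown replicate 3. ALDOC, the isozyme best known from brain, was at 57.4, 145 and 177 TPM in knockdown and 48.1, 104 and 131 TPM in control replicates. Replicate 1 was below the others in both groups, by more than the groups differed, and the log2 fold change of 0.39 had a limma adjusted p of 0.667 without and 0.00874 with the block. It was 0.24 with the GC offset, and without the block it ran from -0.032 without control replicate 1 to 0.88 without knockdown replicate 1. ALDOC made up 4.88% ± 1.61 of the summed TPM of both aldolases in knockdown cells and 4.78% ± 1.78 in controls (SD, n = 3 each; exact permutation p = 0.8).

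In the later steps of the pathway, which yield ATP, PGK1 and ENO2 had the largest changes. PGK1, the phosphoglycerate kinase, was at 463, 633 and 739.8 TPM in knockdown and 407, 455 and 504 TPM in control replicates. Knockdown replicate 1 lay among the controls and the other 2 above them, with a log2 fold change of 0.41 (limma adjusted p = 0.208, and 0.0145 with the block, 0.00131 to 0.081 over the other fits with the block), or 0.26 without knockdown replicate 3. ENO2, the neuron-specific enolase and a HIF target, was at 83.7, 141 and 185 TPM in knockdown and 63.9, 80.9 and 105 TPM in control replicates. It was higher in each pair, by 1.31, 1.74 and 1.77 times, with a log2 fold change of 0.66 (limma adjusted p = 0.228, and 0.00787 with the block, 0.000355 to 0.0545 over the other fits with the block), or 0.41 without knockdown replicate 3. ENO1, the common enolase, was at 1786, 1959 and 2142 TPM against 1910.0, 1785 and 1830.5 TPM and did not pass (0.088). ENO2 thus made up 6.38% ± 1.77 of the summed enolase TPM in knockdown cells and 4.33% ± 1.08 in controls (SD, n = 3 each; unpaired exact permutation p = 0.2), and its share was higher in each pair.

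TPI1, triosephosphate isomerase, rose without overlap of the groups, from 902 ± 29 to 1111 ± 141 TPM (log2 fold change 0.29, limma adjusted p = 0.0179 with the block, and 0.14 with the GC offset). PKM, which encodes pyruvate kinase, was at 2325 ± 111 against 1995 ± 158 TPM without overlap, and its change of 0.22 passed with the block (limma adjusted p = 0.0471) but not with the GC offset added (adjusted p = 0.318). GAPDH, the most abundant of the 41 genes, was at 7119.7, 8720.5 and 9897 TPM in knockdown and 7464, 7355 and 7841 TPM in control replicates. Knockdown replicate 1 was below its control and the other 2 above theirs, and the log2 fold change of 0.17 did not pass (limma adjusted p = 0.436, and 0.168 with the block). PGAM1, a phosphoglycerate mutase, and LDHA, the lactate dehydrogenase subunit that favours lactate, had log2 fold changes of 0.17 and 0.084 and did not pass either. In both of them, as in GAPDH, GPI, ENO1 and HK1, pair 1 was negative and pairs 2 and 3 positive.

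**Figure D3:**
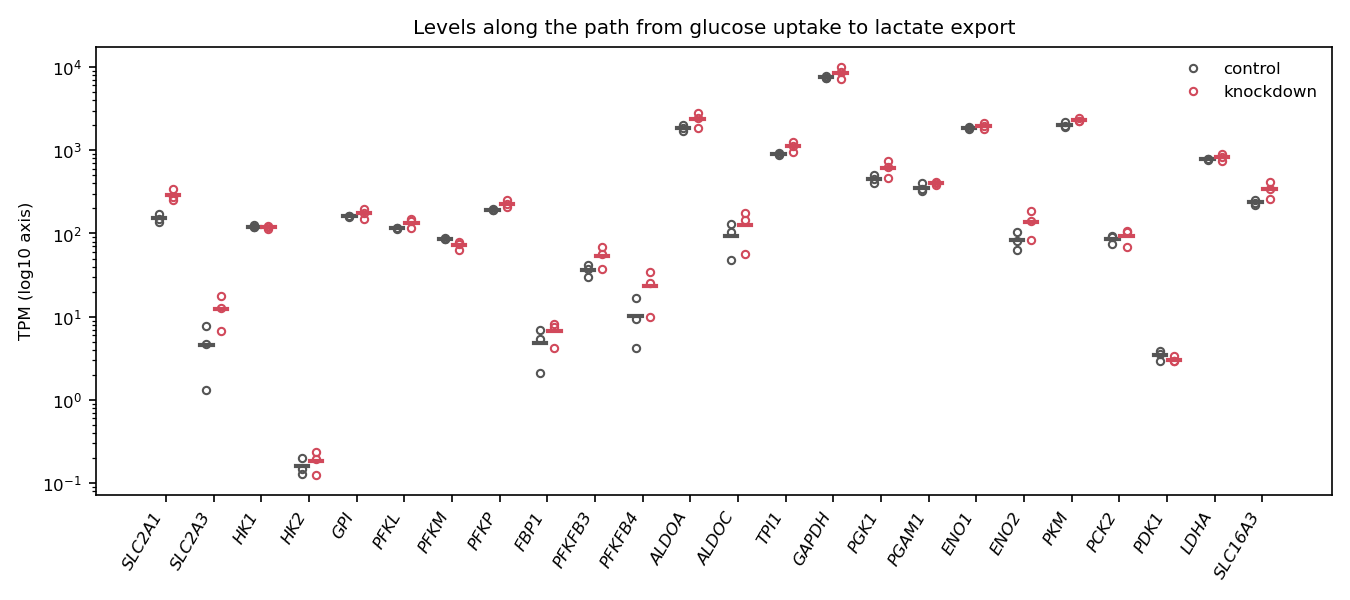
TPM (log10 axis) of 24 of the genes in the order of the path from glucose uptake to lactate export, with control libraries in grey, knockdown libraries in red, and bars at the mean of 3. GAPDH is the highest and HK2 the lowest of the genes drawn, and the 3 knockdown libraries of SLC2A1 lie above its 3 controls.

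PFKFB3 and PFKFB4, bifunctional enzymes that set fructose 2,6-bisphosphate, the activator of phosphofructokinase, rose. PFKFB4 was at 9.95, 25.5 and 34.1 TPM in knockdown and 4.21, 9.49 and 16.9 TPM in control replicates. Control replicate 3 lay above knockdown replicate 1, but the pairs had ratios of 2.37, 2.69 and 2.02, and the log2 fold change came to 1.13 (limma adjusted p = 0.258, and 0.00436 with the block, 6.96e-05 to 0.0391 over the other fits with the block), and 0.66 without control replicate 1. PFKFB3, the form with the higher kinase activity, was at 37.0, 56.5 and 68.3 TPM in knockdown and 29.8, 37.0 and 41.7 TPM in control replicates, with a log2 fold change of 0.53 (limma adjusted p = 0.209, and 0.0101 with the block, 0.000629 to 0.0647 over the other fits with the block). That change was 0.32 with the GC offset and 0.34 without knockdown replicate 3. Of the summed TPM of both, PFKFB4 made up 28.5% ± 6.45 in knockdown cells and 20.5% ± 8.23 in controls (SD, n = 3 each; unpaired exact permutation p = 0.2), and its share was higher in each pair. PFKFB2, a member of the same enzyme family outside the 41 genes, lay lower without overlap, at 2.24, 2.08 and 1.83 TPM against 2.71, 3.02 and 3.04 TPM, and did not pass with the block (log2 fold change -0.37, limma adjusted p = 0.0691, and 0.0168 with limma-voom on recovered reads). PDK1, the kinase that inhibits pyruvate dehydrogenase and a classical HIF target, did not pass, at 2.90, 2.94 and 3.33 TPM in knockdown and 2.91, 3.55 and 3.87 TPM in control replicates (log2 fold change -0.13, limma adjusted p = 0.574, and 0.395 with the block).

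The gluconeogenic enzymes passed in neither direction. FBP1, fructose bisphosphatase, which opposes phosphofructokinase, was at 4.26, 8.21 and 7.49 TPM in knockdown and 2.1, 5.44 and 6.86 TPM in control replicates, on 24 to 131 reads. It was higher in each pair, and the log2 fold change of 0.46 did not pass (limma adjusted p = 0.476, and 0.0562 with the block), ranging from 0.064 to 0.73 with 1 library left out. With the block, FBP1 passed with upper-quartile scaling (limma adjusted p = 0.0385) and with limma-voom (adjusted p = 0.0368). PCK1, the cytosolic phosphoenolpyruvate carboxykinase of liver, was listed at 0 in the 6 libraries, and PCK2, its mitochondrial counterpart, was at 68.8, 104 and 106 TPM in knockdown and 74.9, 93.4 and 90.7 TPM in control replicates (log2 fold change 0.086, limma adjusted p with the block 0.41).

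Of the 11 other HIF targets, CA9, ADM and NDRG1 had the largest log2 fold changes. Of 11 tested, 6 rose (CA9, ADM, NDRG1, ANKRD37, VEGFA and BNIP3), BNIP3L fell and 4 passed in neither direction, while without the block 0 passed. CA9, carbonic anhydrase IX, a membrane enzyme that is among the most specific hypoxia markers, was at 62.8, 186 and 287 TPM in knockdown and 16.3, 78.9 and 130.2 TPM in control replicates. Knockdown replicate 1 was below control replicates 2 and 3, so the groups overlapped, but the pairs had ratios of 3.85, 2.35 and 2.20. The log2 fold change of 1.41 had an SE of 0.85 and a limma adjusted p of 0.336 without the block, and an SE of 0.15 and an adjusted p of 0.00503 with it (8.02e-05 to 0.0391 over the other fits with the block). Without control replicate 1, the lowest library, the unblocked change was 0.56.

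ADM, which encodes the vasodilator peptide adrenomedullin, was at 110.1, 248 and 382 TPM in knockdown and 40.2, 91.6 and 148 TPM in control replicates. The ratio was nearly the same in each pair, at 2.74, 2.70 and 2.57, although replicate 3 was more than 3 times replicate 1 in both groups. Its log2 fold change of 1.40 had the lowest adjusted p of the 41 genes in the limma fit with the block, at 0.000908, against 0.194 without it (4.05e-06 to 0.0134 over the other fits with the block), and the unblocked change was 0.90 without control replicate 1. NDRG1, a gene of growth arrest and stress that hypoxia induces, was the most abundant of the 11, at 242, 691 and 953 TPM in knockdown and 111, 295 and 427 TPM in control replicates. Its pairs also had like ratios, of 2.18, 2.34 and 2.23, and its log2 fold change came to 1.17 (limma adjusted p = 0.3, and 0.0012 with the block, 4.79e-06 to 0.0197 over the other fits with the block). Unblocked, it ran from 0.61 without control replicate 1 and 0.76 without knockdown replicate 3 to 1.75 without knockdown replicate 1. The rise was over 1 on the log2 scale for 5 genes, CA9, ADM, NDRG1, SLC2A3 and PFKFB4, and for 64 of all 13980 genes (0.458%). The study used this size as its limit for fold changes from DESeq2, a different method. With the GC offset and the block NDRG1 was at 0.99 and PFKFB4 at 0.97. With limma-voom and the block SLC2A1 reached 1.01 and ANKRD37 1.05.

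VEGFA, the main angiogenic growth factor, was at 64.6, 123 and 173 TPM in knockdown and 53.4, 73.7 and 95.7 TPM in control replicates. The pair ratios were 1.21, 1.67 and 1.81, lowest in pair 1, and the log2 fold change came to 0.62 (limma adjusted p = 0.341, and 0.0138 with the block, 0.000823 to 0.0732 over the other fits with the block). Unblocked, it was 0.30 without knockdown replicate 3, 0.40 without control replicate 1 and 1.0 without knockdown replicate 1. ANKRD37, a small ankyrin-repeat gene induced by hypoxia, was at 7.15, 12.2 and 16.2 TPM in knockdown and 4.18, 7.38 and 6.79 TPM in control replicates, on 29 to 146 reads. It was higher in each pair, with a log2 fold change of 0.82 (limma adjusted p = 0.164, and 0.00898 with the block, 0.00264 to 0.0565 over the other fits with the block).

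BNIP3 and BNIP3L, related receptors for mitophagy that hypoxia induces, moved in opposite directions. BNIP3 was at 155, 197 and 229 TPM in knockdown and 131, 165 and 187 TPM in control replicates, and BNIP3L at 29.9, 32.8 and 38.7 TPM and 33.5, 40.9 and 44.6 TPM. BNIP3 was higher and BNIP3L lower in each pair, with log2 fold changes of 0.26 and -0.22 and limma adjusted p-values of 0.394 and 0.351 without the block and 0.00842 and 0.0304 with it. With the GC offset BNIP3 was at 0.13 and the call of BNIP3L was lost (-0.10, adjusted p = 0.191). Unblocked, BNIP3 was at 0.12, 0.13 and 0.41 without control replicate 1, knockdown replicate 3 and knockdown replicate 1, and BNIP3L at -0.34, -0.14 and -0.14 without control replicate 1, knockdown replicate 1 and control replicate 3. The share of BNIP3 in the summed TPM of both was 85.0% ± 1.03 in knockdown cells and 80.2% ± 0.568 in controls, with no overlap (SD, n = 3 each; exact permutation p = 0.1, the smallest possible).

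The remaining 4 targets did not pass with the block alone. CA12 and P4HA2 did so with upper-quartile scaling and the block, and with limma-voom and the block. CA12, another membrane carbonic anhydrase, was at 200.2 ± 43.5 against 170.3 ± 22.7 TPM (SD, n = 3 each; log2 fold change 0.22). P4HA1 and P4HA2, catalytic subunits of the collagen prolyl hydroxylase, were at 50.8, 54.8 and 65.6 TPM against 46.7, 55.2 and 72.8 TPM and at 24.9, 24.1 and 26.8 TPM against 23.8, 21.5 and 22.4 TPM. Their log2 fold changes were -0.013 and 0.16, and the groups of P4HA2 did not overlap. KDM3A, a histone demethylase, was lower in each pair with a log2 fold change of -0.17, which turned to 0.028 with the GC offset.

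Across the 38 genes, 24 were higher and 5 lower in all 3 pairs, beside 21.96% and 43.67% of all genes tested. The groups of 7 genes did not overlap in the higher direction and those of 1, PFKM, in the lower, against the 9.58% and 22.3% given above. The median log2 fold change was 0.22. With the GC offset and the block, 17 rose and 2 fell (6.03% and 29.8% of all genes), since PFKP, ALDOA, PKM and BNIP3L no longer passed while EGLN1 (0.34, adjusted p = 0.00983 by limma) and P4HA1 (0.27, adjusted p = 0.0126) did. With libraries scaled to the upper quartile and the block, 23 rose and 1 fell (14.6% and 19.4% of all genes), and the share of higher calls among all calls went from 28.42% to 43.07%. In that fit EPAS1, PFKL, FBP1, CA12 and P4HA2 also passed, while PFKM and BNIP3L no longer did. The same held with limma-voom and the block, where EGLN1, GAPDH and PGAM1 passed too. Without replicate 1 all 21 calls were kept, without replicate 2 the number was 9 and without replicate 3 it was 6 (SLC2A1, SLC2A3, PFKFB4, CA9, ADM and NDRG1), and no call changed sign in these fits. The fold changes of 15 of the 21 called genes moved by over 1.5 times when a single library was left out without the block, and those of 0 did so when a replicate pair was left out with it.

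Genes of the same pathways outside the 41 gave 84 tested genes, of which 17 rose and 17 fell with the block and 0 passed without it, with 17 at an unadjusted p under 0.05, again beside 26.1% of all genes. In the fit with the block 9.94% of all genes rose and 25.0% fell. Other hypoxia response genes had 14 rises and 4 falls among 39. ANGPTL4, a secreted lipase inhibitor, had the largest rise, from 14.9, 82.5 and 122 TPM in control replicates to 87.5, 258 and 392 TPM in knockdown replicates (log2 fold change 1.93, limma adjusted p = 0.215, and 0.00444 with the block). LOX, a collagen cross-linking enzyme, and PPP1R3C, a glycogen-targeting phosphatase subunit, followed with 1.23 and 0.87. TFRC, the transferrin receptor, had the largest fall on the log2(TPM + 1) scale, at -0.60. ZNF292, a zinc finger gene of low level, had -0.54 on that scale and fell more in its pair ratios (0.539, 0.437 and 0.523, against 0.716, 0.644 and 0.611 for TFRC), and its call was lost with the GC offset (adjusted p = 0.137 by limma).

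Genes of pyruvate entry into the mitochondrion and the citric acid cycle, or of its control, fell or passed in neither direction. The list includes PDK2, PDK3 and PDK4, kinases that inhibit pyruvate dehydrogenase and so oppose this entry. Their log2 fold changes were -0.089, -0.26 and -0.37 and did not pass with the block. All 12 tested had negative log2 fold changes, with a median of -0.32 beside -0.08 over all genes tested. Of the 12, 6 fell while 0 rose, beside 25.0% and 9.94% of all genes. With the GC offset and the block the number was also 6, and 29.8% of all genes fell in that fit. There MPC1 no longer passed (adjusted p = 0.0785 by limma) and PDK2, a pyruvate dehydrogenase kinase, did (-0.28, adjusted p = 0.0199). PDHB and MPC2, a dehydrogenase and a carrier subunit, turned slightly positive (0.0077 and 0.017). DLD, DLAT and MPC1, which encode 2 subunits of the pyruvate dehydrogenase complex and 1 of the mitochondrial pyruvate carrier, had the largest falls, at -0.61, -0.51 and -0.49. Among 19 other glycolysis genes 0 rose and 3 fell, namely PGM2, a phosphopentomutase (-0.61), SLC16A1 (-0.42) and LDHB, the other main lactate dehydrogenase subunit (-0.29). With the GC offset and the block 9 of the 19 fell, beside the same 29.8% of all genes. Among 14 other oxygen sensing genes 3 rose and 4 fell. CITED2, which competes with HIF-1α for its coactivators and is itself a HIF target, had the largest rise (0.60), and HSP90AA1, a chaperone that stabilizes HIF-1α, the largest fall (-0.70).

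**Figure D4:**
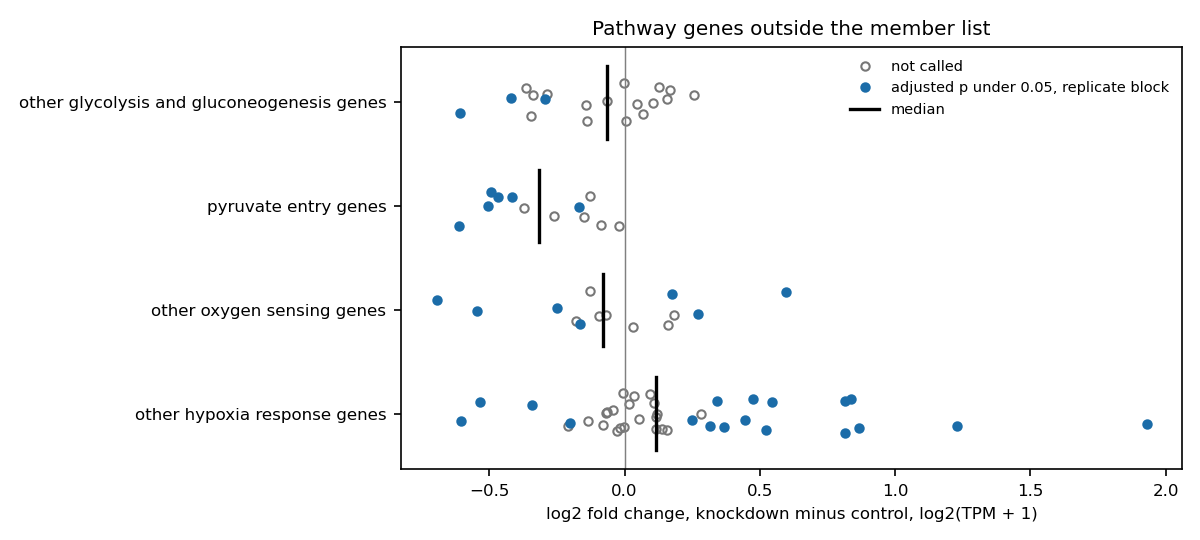
Log2 fold change (horizontal axis, knockdown minus control) of the 84 tested pathway genes outside the 41, by list; filled points have an adjusted p under 0.05 with the replicate block, black bars are medians, and vertical scatter within a list has no meaning. The pyruvate entry genes lie left of 0, and ANGPTL4 is the farthest point to the right among the other hypoxia response genes.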

How the data were processed

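PolyA-Seq of total RNA, with libraries from the NEBNext Ultra kit, was analysed in 3 cDCBLD2 knockdown and 3 control samples. The authors deposited TPM values per gene, which sum to 1000000 in each library. The submitters' processing notes name fastp 0.20.1, HISAT2 2.1.0, StringTie 2.0 and hg38, without their settings. The annotation and strand setting are not given in the sources used here. TPM gives a share of each library, so a change in total RNA per cell cannot be seen, and fewer cells of a type cannot be told apart from less RNA per cell.

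The 13980 genes whose mean reached 1 TPM were analysed as log2(TPM + 1), that is with a pseudocount of 1, by limma 3.58.1 (R 4.3.3, trend) without a block, with two-sided p-values and Benjamini-Hochberg adjustment, and a call at an adjusted p under 0.05. A fold change on the log2(TPM + 1) scale understates the change of low genes. Two-sided exact permutation tests served for shares and sums. Deviations from the group means of libraries with the same replicate number correlated at 0.56, 0.343 and 0.362 over genes. Across numbers, replicates 2 and 3 correlated at 0.214 and 0.247 and replicate 1 with the others at -0.45 to -0.376. Since every same-numbered correlation was over 0.1, the numbers in the sample titles were taken to pair the libraries. Replicates 2 and 3 also exceeded 0.1 across numbers. This limit therefore sets replicate 1 apart but cannot tell a pairing of 2 with 2 from one of 2 with 3. Values of the blocked fit stand beside each result that it changes. The alternatives were other pseudocounts, filters and scalings, GC content and length offsets, single libraries or replicate pairs left out, and limma-voom on recovered reads, the last chosen after seeing the data.

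Whole reads were recovered from the ratios of TPM values for 100.0% of the 17285 genes above 0 in the 6 libraries, within a tolerance of 0.01, and give between 17492673 and 23064302 reads per library, as lower bounds. GC content and length came from GENCODE release 29 transcripts, matched by symbol, for 92.7% of the tested genes. Scripts were tested on simulated data. The members and lists were chosen with earlier results of these data known. Values in every library are given for genes called with an absolute log2 fold change of at least 0.3, the most abundant and most changed gene of each role group, the isozyme sets, and HIF1A, EPAS1, GAPDH, CA9, FBP1 and PCK1. Values of at most 3 genes per direction were named in each list of other genes.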

Additional observations from a re-analysis of the deposited data

How the results depend on the processing

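With 3 against 3 libraries no exact permutation p can be under 0.1, and most calls rest on the pairing by replicate number. Members called higher numbered 1 in the fit without a block, 0 with no filter on low values, 18 with the replicate block, and 0 to 12 when 1 library was left out (12 without knockdown replicate 1), and those called lower numbered 0, 3 with the block and 0 to 1 with 1 library left out. With the block, 26 were called higher without replicate 1, 8 without replicate 2, 6 without replicate 3 and 26 with limma-voom on recovered reads. With the block, 1 was called lower with upper-quartile scaling, 1 without replicate 2, 0 without replicate 3 and 1 with limma-voom. The shares of all genes called in the fits with libraries left out and with limma-voom are not given here, so these counts describe the fits only. Of the other pathway genes, 1 was called higher with a mean of at least 5 TPM, 1 with limma-voom, 17 with the replicate block and 0 to 7 with 1 library left out, and 17 were called lower with the block and 0 to 11 with 1 library left out. With the block, 9 of them were called higher without replicate 2, 7 without replicate 3 and 26 with limma-voom, and 4 and 2 were called lower without replicates 2 and 3. Their median log2 fold change was -0.01 in the main fit and 0.0746 with limma-voom (0.0792 with the block). The cause of these shifts was not tested. Fits with libraries left out also held fewer libraries than the main fit, and the part of this was not tested either.

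The sign changed under an alternative in 10 of the 38 genes, of which 1, ALDOC, was called with the block. ALDOC ranged from -0.0324 to 0.877 on the log2 scale when 1 library was left out. With the GC content offset, with and without the block, EPAS1 was at -0.0363, VHL at 0.0407, GPI at -0.0758, PFKL at -0.0332, PDK1 at 0.0784, PCK2 at -0.127, P4HA1 at 0.272 and KDM3A at 0.0282. With upper-quartile scaling VHL was at 0.0451, HK1 at 0.0516 and P4HA1 at 0.0573. With the transcript length offset VHL was at 0.00639 and P4HA1 at 0.0208. With limma-voom VHL was at 0.0733 (0.0731 with the block), HK1 at 0.0792 (0.0801) and P4HA1 at 0.0828 (0.0785). With 1 library left out, HK1 ranged from -0.0395 to 0.0125, PCK2 from -0.0188 to 0.288 and P4HA1 from -0.157 to 0.158. With 1 replicate pair left out and the block, HK1 reached 0.0381, VHL 0.00100 and P4HA1 0.0554. The 21 calls with the block kept their sign in each of the other fits with the block.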

Other observations

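Besides HIF1A-AS2, which is described with HIF1A, other antisense transcripts and near-identical copies were low. SLC2A1-AS1 was at 3.25 ± 0.266 TPM in knockdown cells and 2.24 ± 1.04 TPM in controls (SD, n = 3 each), and ENO1-AS1 at 3.26 ± 2.23 and 1.63 ± 1.05 TPM. P4HA2-AS1 was at 2.56 ± 0.953 and 3.02 ± 0.508 TPM. The copies PGAM1P5, TPI1P2 and TPI1P3 stayed under 1 TPM in the 6 libraries. Reads of PGAM1, TPI1 and similar genes may have been split with such copies, since the treatment of multiply mapped reads is not given in the sources used here.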
